A study of Mus musculus with 2 samples.

Results

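The 5 NF-κB subunit genes (Nfkb1, Nfkb2, Rel, Rela and Relb) and 5 inhibitor genes (Nfkbia, Nfkbib, Nfkbie, Tnfaip3 and Bcl3) were examined in mouse ear epidermis. They were chosen by name, and all 10 were found, 1 row each, among the 26242 named genes of the deposited table. RNA was sequenced from C57BL/6 mice given 5% imiquimod cream on the ears daily for 6 days, so both groups carried the same treatment. Imiquimod activates Toll-like receptor 7 and gives mice a skin inflammation that resembles psoriasis. 1 group was wild type. The other was K14 conditional Il9ra KO, in which the interleukin-9 receptor gene is deleted through keratin 14, a keratin of basal keratinocytes, so Langerhans cells and T cells of the epidermal sheet are not the cells named by the deletion. Each group had 1 library, so there was no spread between animals to compare a difference with, and no test was made. The number of animals behind a library, their age and sex, and the driver line were not stated in the labels. The comparison asks how the inflamed epidermis differs in its transcripts without this receptor on keratinocytes.

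NF-κB is a family of dimeric transcription factors built from Rel-domain subunits. In resting cells, IκB proteins hold most dimers in the cytoplasm. In the canonical route, receptors of the tumour necrosis factor, interleukin-1 and Toll families activate the IKK complex, which marks IκB for destruction and frees dimers such as RelA with p50. In the noncanonical route, the kinase NIK (Map3k14) leads to processing of p100, the Nfkb2 product, to p52, which pairs with RelB. Several of these genes are themselves NF-κB targets, above all Nfkbia and Tnfaip3, which form negative feedback loops. In skin, keratinocyte NF-κB signalling is known for its part in psoriasis, where TNFAIP3 and CARD14 are human risk genes.

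The κB motif, the DNA element that NF-κB dimers bind, was looked for in the RefSeq promoters of the members (GRCm38.p6, 250 bases before to 50 bases after each transcript start). The consensus used was GGG, a purine, 2 bases of any kind, 2 pyrimidines and CC, on both strands. Promoters were at hand for 8 members, and 6 of them held a match: Nfkb2, Rel, Nfkbia, Nfkbie, Tnfaip3 and Bcl3. Of all 27025 genes with a promoter in that table, 9.55% held one. A form with more fixed letters, which overlaps the consensus (GGGA, any base, TT, any base and CC, both strands), was found in Nfkb2, Rel, Nfkbia and Bcl3, and in 1.38% of all genes. In Rela and Nfkbib these letters were not in the window. Nfkb1 and Relb had no promoter in the table. The 250 bases before the RefSeq start are printed for the 4 members with the largest differences between the libraries. For Tnfaip3 and Nfkb2 the gene positions given below, which come from GENCODE, begin before that start. Nearly all of the stretch printed for each therefore lies inside the gene as GENCODE marks it. Sequences run 5′ to 3′ on the gene's strand, with κB matches on either strand in capitals.
Nfkbia, chr12:55492648-55492897, minus strand: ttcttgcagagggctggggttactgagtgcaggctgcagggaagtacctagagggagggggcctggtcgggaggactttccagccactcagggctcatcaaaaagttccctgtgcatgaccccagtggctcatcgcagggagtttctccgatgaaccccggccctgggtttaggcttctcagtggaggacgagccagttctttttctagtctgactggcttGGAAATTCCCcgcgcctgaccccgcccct
Tnfaip3, chr10:19015411-19015660, minus strand: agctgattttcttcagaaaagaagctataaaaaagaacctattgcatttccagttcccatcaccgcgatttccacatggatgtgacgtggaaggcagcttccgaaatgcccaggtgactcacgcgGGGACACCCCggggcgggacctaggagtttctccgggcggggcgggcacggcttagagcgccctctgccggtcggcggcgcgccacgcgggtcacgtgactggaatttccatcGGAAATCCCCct
Nfkbie, chr17:45555450-45555699, plus strand: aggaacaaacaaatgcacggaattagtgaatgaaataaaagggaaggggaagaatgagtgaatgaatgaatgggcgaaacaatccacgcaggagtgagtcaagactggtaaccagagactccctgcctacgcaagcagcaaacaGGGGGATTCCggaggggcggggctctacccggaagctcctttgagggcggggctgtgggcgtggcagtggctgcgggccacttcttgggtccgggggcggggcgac
Nfkb2, chr19:46304487-46304736, plus strand: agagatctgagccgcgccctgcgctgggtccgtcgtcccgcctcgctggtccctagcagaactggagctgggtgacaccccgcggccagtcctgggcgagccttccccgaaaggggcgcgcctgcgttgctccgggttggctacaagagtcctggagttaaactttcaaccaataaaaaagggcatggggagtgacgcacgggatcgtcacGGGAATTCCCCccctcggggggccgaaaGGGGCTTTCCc

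In Nfkbia the match ended 20 bases before the start, at -29 to -20. Tnfaip3 had matches at -125 to -116 and at -12 to -3, the first of them on both strands, and its second RefSeq start had none. In Nfkb2, which has 3 RefSeq starts, the first start had overlapping matches at -39 to -29 and another at -11 to -2. The windows of both later Nfkb2 starts held GGGACTTTCC, which is the same stretch of genome seen from both starts. For comparison, windows of 30 bases are printed for Rel and Bcl3, whose levels differed less.
Rel, chr11:23771042-23771071, minus strand: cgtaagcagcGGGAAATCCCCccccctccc
Bcl3, chr7:19822734-19822763, minus strand: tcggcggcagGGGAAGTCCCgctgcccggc
The Rel match began at -92, and the Bcl3 match lay just after the start, at 3 to 12. A match is a string of letters and not a measured binding site.

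**Figure D1:**
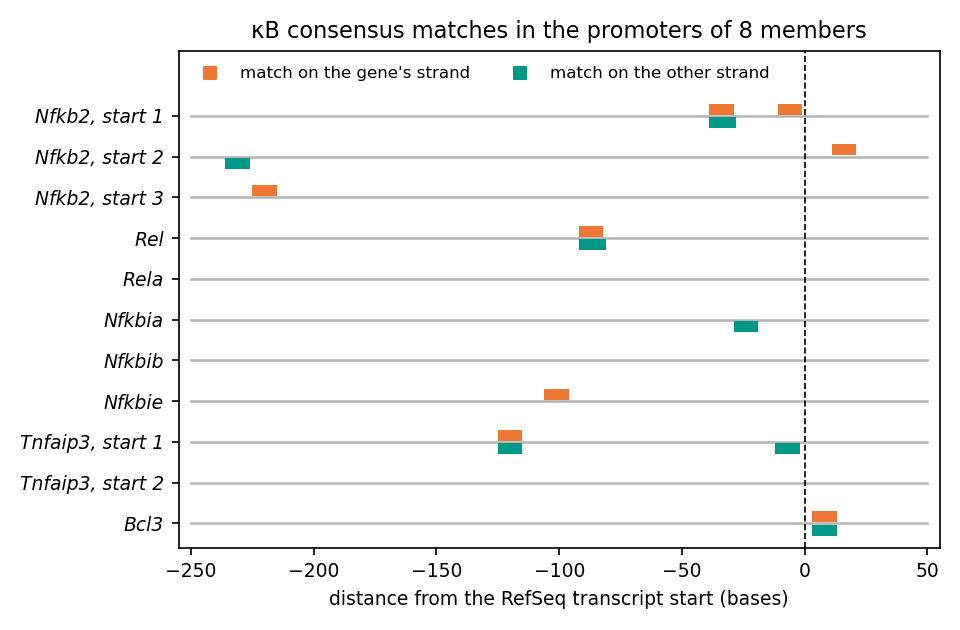
Positions of κB consensus matches relative to the RefSeq transcript start (x axis, bases) in the promoters of the 8 members with a sequence, 1 line per start. Boxes above the line are matches on the gene's strand and boxes below it matches on the other strand; Rela, Nfkbib and the second Tnfaip3 start have none.

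Values were FPKM, that is, sequenced fragments normalised to transcript length and to library size, so levels of different genes can be compared within a library. The spacing of the smallest FPKM values placed the depth near 24100000 fragments for wild type and 31300000 for the knockout. How library size was scaled was not stated, so these are the depths that the FPKM values imply. They can differ from the number of fragments sequenced. All 10 members were above 1 FPKM in both libraries. With transcript lengths from the annotation, they rested on about 240 fragments (Nfkbie, knockout) to 21860 fragments (Nfkbia, wild type). The targeted gene, Il9r, measured 0.039 FPKM in wild type against 0.011 in the knockout, too low in both to check the genotype labels. The keratinocyte markers were abundant, with Krt14 at 7421 against 8083 FPKM.

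Among the inhibitors, Nfkbia dominated both libraries. Nfkbia encodes IκBα, the inhibitor that is destroyed and remade within a canonical response (chromosome 12, 55489410 to 55492647). It measured 575 FPKM in wild type against 440.2 in the knockout (pairs of values are given in this order throughout), the 166th and the 205th most abundant gene of each. The knockout value was 0.766 times the wild-type value, a log2 difference of -0.38. All log2 differences given here are log2((knockout FPKM + 1)/(wild-type FPKM + 1)). Of the 11886 genes that reached 1 FPKM in 1 or both libraries, called compared genes here, 3.99% had a lower log2 difference than Nfkbia.

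Tnfaip3, which encodes A20, a ubiquitin-editing enzyme that shuts down signalling upstream of IKK (chromosome 10, 19000910 to 19015657), measured 68.5 FPKM in wild type against 48.8 in the knockout. Its log2 difference was -0.48, and 2.37% of compared genes lay lower. Nfkbie, which encodes IκBε (chromosome 17, 45555703 to 45563169), was the least abundant member, with 4.78 against 3.15 FPKM. Its log2 difference was -0.48, or -0.60 as a plain ratio of the FPKM. So the most and the least abundant inhibitors were both lower in the knockout library.

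The other inhibitors lay close together in the libraries. Nfkbib, which encodes IκBβ (chromosome 7, 28758251 to 28767512), measured 33.7 FPKM in wild type against 32.7 in the knockout, a log2 difference of -0.04. Bcl3 encodes an atypical nuclear IκB protein that binds p50 and p52 dimers and can activate as well as repress (chromosome 7, 19808462 to 19822770). It was the 1 member with a higher value in the knockout library, with 27.4 against 28.5 FPKM, a log2 difference of 0.05 that 68.4% of compared genes lay below.

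All 5 subunits were lower in the knockout library, by unequal amounts. Rela, which encodes p65, the main transactivating subunit of the canonical route (chromosome 19, 5637483 to 5648130), was the most abundant of them and measured 38.3 FPKM in wild type against 34.0 in the knockout. Nfkb1, which encodes p105 and from it p50 (chromosome 3, 135584655 to 135691547), measured 27.5 against 23.9 FPKM. Rel encodes c-Rel, best known in lymphoid and myeloid cells (chromosome 11, 23736847 to 23770970), and measured 21.5 against 18.0 FPKM. The log2 differences of these canonical subunits were -0.17, -0.19 and -0.24. Rel lies 8.42 Mb from Il9r on the same chromosome.

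The noncanonical pair differed within itself. Nfkb2, which encodes p100 (chromosome 19, 46304320 to 46312385), measured 15.3 FPKM in wild type against 10.8 in the knockout, a log2 difference of -0.47. Relb, which encodes RelB (chromosome 7, 19606217 to 19629438), measured 13.97 against 13.6 FPKM, a log2 difference of -0.03. The ratio of Nfkb2 to Relb was 1.10 in wild type against 0.792 in the knockout, so the pair changed order. By contrast the ratio of Nfkb1 to Rela was 0.717 and 0.704.

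**Figure D2:**
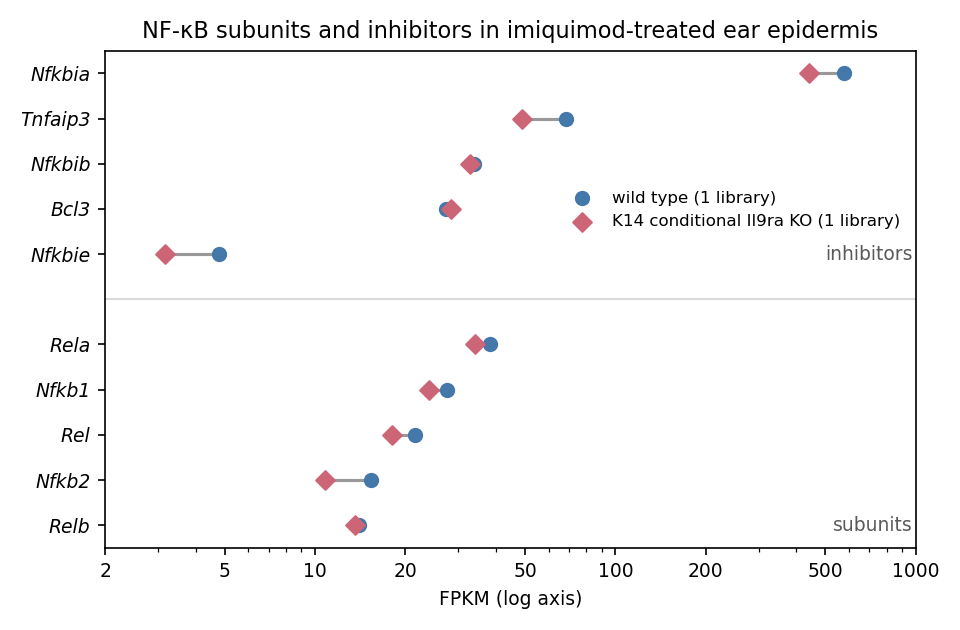
FPKM of each member (x axis, log scale) in the wild-type library (circles) and the knockout library (diamonds), 1 library each, with inhibitors above and subunits below, ordered by wild-type level. Nfkbia lies far to the right at 575 against 440.2 FPKM, and the gap is widest for Nfkbie, Nfkb2 and Tnfaip3, while Relb, Nfkbib and Bcl3 nearly coincide.

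The order of levels was nearly the same in both libraries. In the wild type it ran Nfkbia, Tnfaip3, Rela, Nfkbib, Nfkb1, Bcl3, Rel, Nfkb2, Relb and Nfkbie. In the knockout library Bcl3 stood above Nfkb1 and Relb above Nfkb2, and the other places were the same. With 1 library each, whether neighbours in this order differ beyond a spread could not be assessed; Nfkb1 and Bcl3 were 27.5 and 27.4 FPKM in the wild type.

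Summed over the 5 genes, subunit transcripts measured 117 FPKM in wild type against 100.4 in the knockout. Inhibitor transcripts summed to 709 and 553 FPKM, of which Nfkbia made up 81.1% and 79.6%. Without Nfkbia the inhibitor sum was 134 and 113 FPKM, 0.842 times the wild-type value, close to the 0.861 of the subunits. The ratio of inhibitor to subunit transcripts was 6.08 in wild type against 5.51 in the knockout, and that of Nfkbia to Rela was 15.0 against 12.9. These are ratios of transcripts and not of proteins. The split follows the member list and is not a balance of function. Bcl3, which can activate as well as repress, is in the inhibitor sum. The IκB gene Nfkbiz, at 151 FPKM in wild type against 120.3 in the knockout, is not.

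Beside all compared genes, 9 of 10 members were lower in the knockout library, where 55.6% of genes were. A smaller threshold was set at 25%, that is, the larger of both FPKM + 1 values at least 25% above the smaller. By it 4 of 10 members were lower in the knockout (Tnfaip3, Nfkbie, Nfkb2 and Nfkbia), beside 5.90% of all compared genes. Scaling on summed reference genes ended the call of Nfkbia, at -0.29, and a pseudocount of 5 FPKM ended that of Nfkbie, at -0.26. By the same 25% threshold 0 of 10 were higher, beside 4.59%. No member reached 2-fold in either direction, beside 0.345% of genes lower and 0.412% higher. The median log2 difference of the 10 members was -0.22, and that of all compared genes -0.02, with 5% of genes below -0.34. Under reference gene scaling these medians were -0.13 and 0.06. The authors' deposited table gave no member a p or q below 0.05; its lowest p was 0.0515, for Tnfaip3, and the q of every member in the authors' deposited table was 0.999. That test has 1 library on each side and so does not compare genotypes. The direction of Relb and Nfkbib depended on scaling, and both were slightly higher in the knockout library (0.05 each) when the libraries were scaled on summed reference genes.

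**Figure D3:**
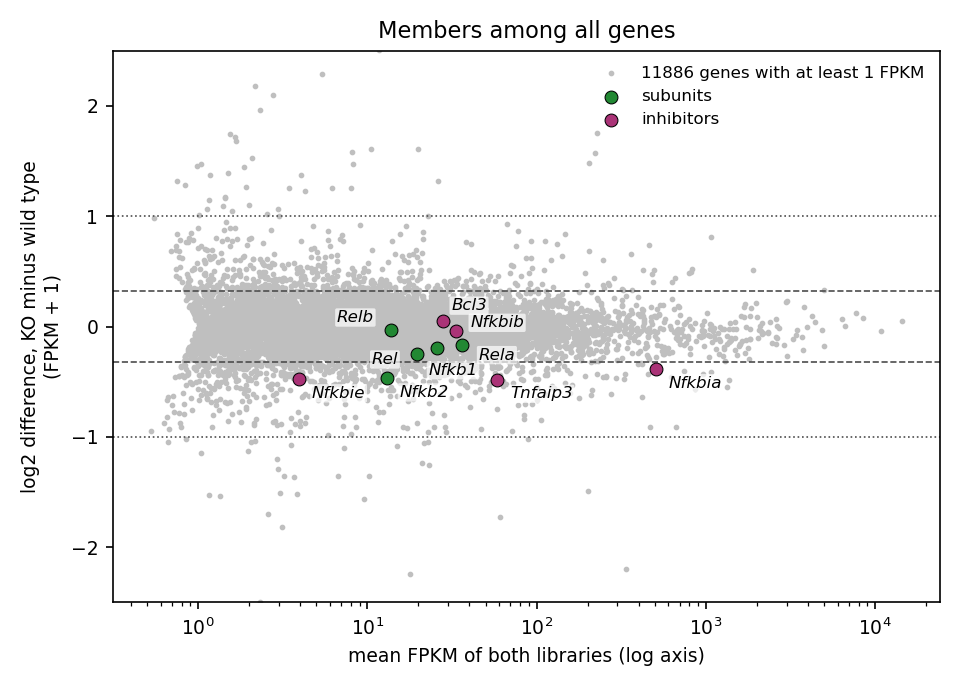
Log2 difference between the libraries (y axis, knockout minus wild type, FPKM + 1) against mean FPKM (x axis, log scale) for 11886 genes (grey), with subunits and inhibitors marked; dashed lines are the 25% threshold and dotted lines 2-fold, and 17 genes lie beyond the y axis. The members lie from -0.48 to 0.05, with Nfkbia, Tnfaip3, Nfkb2 and Nfkbie below the lower dashed line.

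All 4 of the members lower by the 25% threshold held a κB match in the printed promoters. So did Rel and Bcl3, which did not reach that threshold, and Rela and Nfkbib had no match. A promoter was at hand for 8002 of the 11886 compared genes, and the others were left out of the split. Of 992 genes with a consensus match, 6.05% were lower by the 25% threshold, beside 4.98% of 7010 genes without one, and the median log2 differences were -0.03 and -0.02. The 60 lower genes with a match include these 4 members. The form with more fixed letters was not found in Tnfaip3 or Nfkbie. It was found in 132 genes, of which 9.85% were lower by that threshold, beside 5.03% of the 7870 without it. Those 13 lower genes include Nfkb2 and Nfkbia themselves, and the median log2 differences ran the other way, at -0.0066 with this form and -0.0223 without. These splits were added after the values were seen and are descriptions.

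The genes around the members were mixed. Among the atypical IκB genes, Nfkbiz, which encodes IκBζ, a nuclear cofactor of interleukin-17 and interleukin-36 responses in keratinocytes, measured 151 FPKM in wild type against 120.3 in the knockout. Nfkbid, which encodes IκBNS, went the other way, with 8.34 against 10.5 FPKM, and Nfkbil1, an IκB-like gene, measured 11.6 against 12.1 FPKM. Of the IKK complex, the kinase genes Chuk (IKKα) and Ikbkb (IKKβ) measured 15.1 against 12.2 and 16.1 against 14.3 FPKM. The regulatory subunit gene Ikbkg (NEMO) measured 4.76 against 4.79 FPKM.

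The noncanonical branch genes Map3k14, Traf2, Traf3, Birc2 and Birc3 were listed together with the IKK-related kinases Tbk1 and Ikbke and their adaptor Tank. Of these 8 genes, 1 was lower and 1 higher by the 25% threshold, with a median log2 difference of 0.09. The lower gene was Map3k14, the kinase NIK, with 4.72 FPKM in wild type against 3.20 in the knockout. The higher gene was Tbk1, an IKK-related kinase from outside that branch, with 19.7 against 25.4 FPKM. Ikbke, the other IKK-related kinase, measured 9.36 against 10.9 FPKM, and Birc2 and Birc3, ubiquitin ligases that hold NIK down, measured 8.38 against 9.78 and 10.96 against 11.9 FPKM. Tank, a TRAF-binding adaptor of the IKK-related kinases, measured 21.8 against 20.98 FPKM.

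Of 20 adaptor and ubiquitin ligase genes, 12 were lower and 8 higher (median log2 difference -0.07). Card14, a keratinocyte scaffold of the pathway, was the 1 gene of them past the 25% threshold, with 9.67 FPKM in wild type against 7.14 in the knockout. Its partner Malt1, a paracaspase that cleaves A20, measured 10.8 against 8.66 FPKM, and Bcl10, the linker between them, measured 67.3 against 61.1 FPKM. Tab2, an adaptor of the kinase TAK1, measured 44.2 against 45.1 FPKM. Myd88, the adaptor of Toll-like and interleukin-1 receptors, measured 48.6 against 44.8 FPKM. Sharpin, a subunit of the linear ubiquitin ligase, and Tradd, an adaptor of TNF receptor 1, were higher, with 14.2 against 17.6 and 11.9 against 14.6 FPKM.

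A20 partners and other brakes lay in both directions. Of 17 listed genes 16 were compared, 9 higher and 7 lower, with a median of 0.02. Tollip, a negative regulator of interleukin-1 receptor signalling, was the 1 gene lower by the 25% threshold, with 86.2 FPKM in wild type against 67.3 in the knockout. Tnip1, the A20-binding protein ABIN1, measured 12.4 against 15.2 FPKM, and Zc3h12a, the RNase Regnase-1, measured 92.3 against 79.9 FPKM. Tax1bp1, an A20 adaptor, measured 76.6 against 77.4 FPKM. Nkiras2, which encodes an IκB-interacting Ras-like protein, measured 24.8 against 29.7 FPKM, and Pdlim2, which encodes a ubiquitin ligase of RelA, measured 84.7 against 82.2 FPKM.

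Of 16 receptor genes 11 were compared, 8 of them lower and 3 higher, with a median of -0.06. Tnfrsf12a, the receptor of TWEAK, measured 119 FPKM in wild type against 85.3 in the knockout. Il1rl2, the interleukin-36 receptor, measured 25.6 against 19.2 FPKM, and these 2 receptor genes passed the 25% threshold. Ltbr, the lymphotoxin beta receptor of the noncanonical route, measured 25.04 against 21.9 FPKM. Tnfrsf1a, TNF receptor 1, measured 131 against 124 FPKM, and Il17rc, a subunit of the interleukin-17 receptor, measured 59.9 against 53.3 FPKM. Tlr7, the receptor of imiquimod, was listed at 0 for wild type and measured 0.017 FPKM in the knockout.

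Textbook NF-κB target genes, other than the members, were spread in both directions. Of 33 listed genes 26 were compared, of which 15 were lower and 11 higher; their median log2 difference was -0.05. By the 25% threshold 8 of the 26 were lower, beside 5.90% of all compared genes, and 1 was higher, beside 4.59%. Il1b, which encodes interleukin-1 beta, measured 14.7 FPKM in wild type against 4.32 in the knockout. Cd83, a surface protein of mature dendritic cells, measured 9.66 against 4.72 FPKM. Ccl20, the ligand of CCR6, measured 509 against 326 FPKM. Bcl2a1b, an anti-apoptotic gene with near-identical copies whose value is uncertain for that reason, measured 5.83 against 2.88 FPKM. Lcn2, the iron-binding lipocalin, was the 1 target higher by that threshold, with 11.4 against 22.3 FPKM. Among the most abundant targets, Ier3, an immediate early response gene, measured 391 against 359 FPKM, and Myc, the transcription factor gene, measured 103 against 123 FPKM. Under scaling on summed reference genes the medians of the adaptor, receptor and target lists changed sign, to 0.01, 0.01 and 0.04. Ptgs2, the inducible cyclooxygenase, was picked after its value was seen and measured 59.0 against 37.0 FPKM. Other targets picked in the same way lay close in the libraries: Tnf measured 19.998 against 19.8 FPKM, and Cxcl1 measured 63.5 against 65.7 FPKM.

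**Figure D4:**
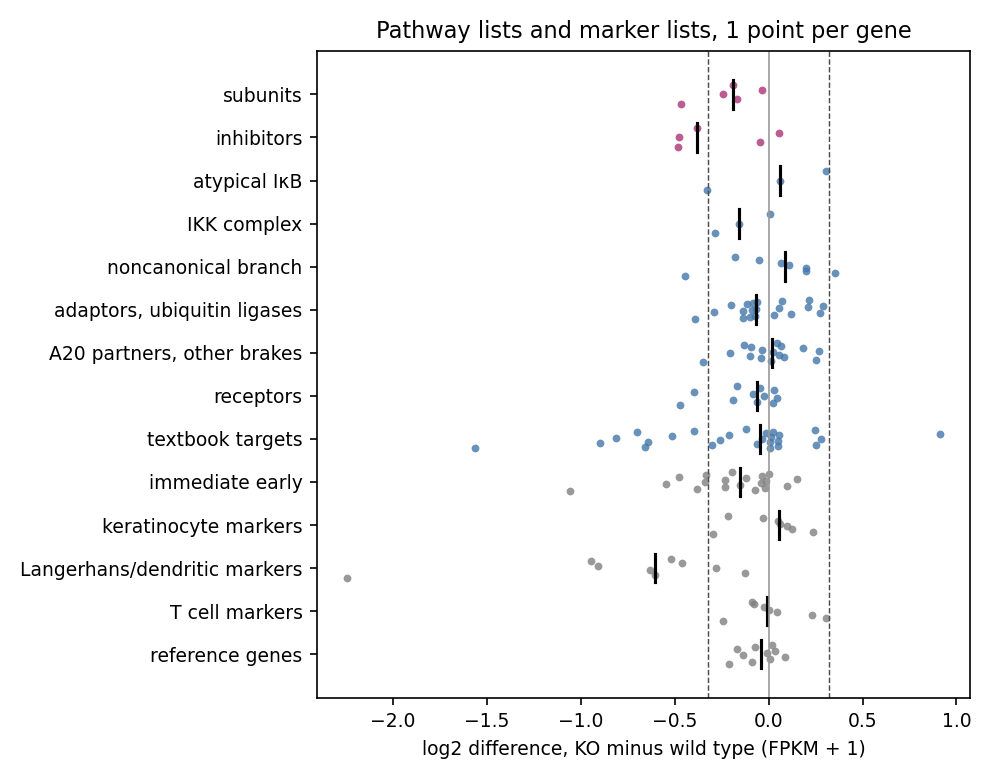
Log2 difference between the libraries (x axis, knockout minus wild type, FPKM + 1) for each compared gene of the lists shown. These are the member, pathway, immediate early and reference lists and the keratinocyte, Langerhans and dendritic cell, and T cell marker lists. The other marker lists are not drawn. The black bar is the list's median and dashed lines are the 25% threshold. The inhibitors have a median of -0.38 and the subunits of -0.19, the pathway lists straddle 0, and the Langerhans and dendritic cell list lies lowest, at -0.61. The noncanonical branch row includes Tbk1, Ikbke and Tank.

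Markers of other epidermal cells and handling-responsive genes were read beside these values. In bulk tissue, fewer cells of a type and less RNA per cell cannot be told apart. All 9 compared Langerhans and dendritic cell markers (of 11 listed) were lower in the knockout library, 7 of them by the 25% threshold. Over all compared genes these shares were 55.6% and 5.90%. The listed markers summed to 721 FPKM in wild type against 481 in the knockout. The largest difference was that of H2-Eb1, an MHC class II gene, with 29.97 FPKM in wild type against 5.53 in the knockout, a log2 difference of -2.25. H2-Aa, of the same class, measured 94.2 against 48.4 FPKM, H2-Ab1 measured 136 against 89.1 FPKM, and Cd74, the invariant chain, measured 342 against 248 FPKM. Cd207, the langerin gene, measured 37.6 against 19.5 FPKM, and Cd86, a costimulatory ligand, measured 5.72 against 3.34 FPKM. T cell markers summed to 78.4 and 79.8 FPKM, most of it Thy1 at 50.3 and 49.4 FPKM. Over 8 genes their log2 differences ran from -0.24 to 0.30, 4 higher and 4 lower, with a median of -0.01. The neutrophil genes Ly6g, Elane and Retnlg and the B cell genes Cd79b and Ms4a1 were listed at 0 in both libraries, and the whole neutrophil list summed to 6.26 against 8.17 FPKM, nearly all of it Cxcr2, with B cell genes at 0.643 against 0.934. Macrophage and monocyte markers summed to 6.87 against 7.48 FPKM. Fibroblast and endothelial markers summed to 3.64 against 2.73 FPKM, and 2 of the 7 listed were compared, both lower in the knockout library. Of 8 keratinocyte markers 5 were higher and 3 lower in the knockout library, from -0.30 to 0.23, with a median of 0.06.

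Immediate early genes are induced by tissue handling and by many stimuli. In the knockout library 16 of 19 lay lower, beside 55.6% of all compared genes, and 6 of them by the 25% threshold, beside 5.90%. The median of the 19 genes was -0.15. Under scaling on summed reference genes it was -0.06, where that of all genes was 0.06. The 19 genes summed to 7687 FPKM in wild type against 6914 in the knockout. Klf2, a Krüppel-like transcription factor gene, was the 1 gene of the list past 2-fold, with 29.6 FPKM in wild type against 13.7 in the knockout, a log2 difference of -1.06. Fosl1, an AP-1 subunit gene, measured 145 against 99.2 FPKM. Atf3 measured 380.4 against 273 FPKM, and Nr4a1 measured 588 against 451 FPKM, beside Junb at 1070.4 against 1055 FPKM, Zfp36 at 988 against 960.1 FPKM and Jun at 688 against 653 FPKM. The part of the Langerhans cell and immediate early genes in the values of the members was not tested. The median over 10 reference genes was -0.04.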

How the data were processed

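RNA-seq of 2 libraries was used, 1 per genotype, grouped by the genotype labels, with table columns matched by name. The submitters' processing notes name Cufflinks 2.2.1, TopHat2 2.0.13 and mm10; annotation release, strand use and scaling were not stated. Per the file headers, the authors deposited FPKM for each locus. Per the file headers they also deposited the log2 fold change between the libraries, its test score, and p-value and q-value columns; these were copied as they stand. For 99.96% of loci above 0 in both libraries, that fold change equalled the log2 FPKM ratio to within 0.001. Of the members' rows, 7 of 10 include transcripts assembled from the reads beside RefSeq ones, and Rela, Nfkbia and Nfkbib rest on RefSeq alone.

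Of 29246 rows, 26264 had a name and a RefSeq transcript; rows of 1 name were summed, giving 26242 genes. The 11886 genes reaching 1 FPKM in 1 or both libraries were compared as log2 with a pseudocount of 1 FPKM, which understates differences of low genes. The table gives no counts. Depth was estimated from the lowest step of FPKM times length over 526 and 579 low genes of 3 to 12 kb, so fragment numbers are approximate and carry no intervals. A group of 1 library allowed no p-value.

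The members, the 16 other lists, the thresholds and the named-gene rule were chosen with earlier results of these data known. The rule names the members, the atypical IκB and IKK genes and Il9r. In each list it also names up to 4 genes with the largest difference and the 3 most abundant. Genes of the T cell, macrophage, fibroblast, reference and keratinocyte lists are given only as list summaries, but for Thy1 and Krt14. Lists were matched by symbol, merged locus or RefSeq synonym. Trdc and Tcrg-C1 were not matched. Gene positions came from GENCODE M21 (GRCm38, the assembly of mm10), and promoter sequences those of RefSeq on GRCm38.p6. Protein sequences were not used here. The log2 difference, the threshold calls and the depth estimate were tested on simulated data with counting noise and no spread between animals. The promoter search, the matching of lists, the scalings and the sums were not tested in this way. Alternatives were other pseudocounts, filters, scalings and thresholds. Python 3.11.15 with numpy 2.4.6, pandas 2.3.3 and matplotlib 3.10.9 was used.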

Additional observations from a re-analysis of the deposited data

How the results depend on the processing

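No paired analysis was possible because each genotype had 1 library. None of the 4 members lower by the 25% threshold changed direction under the pseudocounts, scalings, row choice or deposited fold change that were run: Nfkbia ranged from -0.38 to -0.29, Tnfaip3 from -0.49 to -0.39, Nfkb2 from -0.50 to -0.36 and Nfkbie from -0.60 to -0.26. Their count became 3 with a pseudocount of 5 FPKM (without Nfkbie), with scaling on summed reference genes (without Nfkbia) and with a filter of 5 FPKM, which removes Nfkbie. Under reference gene scaling the median of all genes was 0.06 and that of the members moved from -0.22 to -0.13, and Relb and Nfkbib changed sign. The 0 members past 2-fold became 4 at 25% and stayed 0 at 1.5-fold with the pseudocount of 1 FPKM; as a plain FPKM ratio Nfkbie was 1.515-fold lower. The log2 ratio of the inhibitor sums moved from -0.36 to -0.25 without Nfkbia, its most abundant gene. Depth limits Nfkbie most, at about 280 and 240 fragments.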
